A study of Homo sapiens with 4 samples.

Results

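The genes described here encode the proteases and inhibitors with which invading cells open the extracellular matrix, namely the plasminogen activators PLAU (urokinase) and PLAT (tissue-type activator), the urokinase receptor PLAUR, the matrix metalloproteinases MMP1, MMP2 and MMP14, and the tissue inhibitors of metalloproteinases TIMP1, TIMP2 and TIMP3. They were taken by gene symbol from the table of read counts, in which all 9 were found among 61806 genes, 32210 of them with at least 1 count. RNA with a poly(A) tail was sequenced from 2 established human cancer cell lines, the breast cancer line MDA-MB-231 and the line MDA-MB-435, which the study calls melanoma. Each line was sequenced as an untreated control, whose vehicle is not given, and after 6 h with CPYPP at 10 µM. CPYPP is a small molecule known as an inhibitor of DOCK proteins, the exchange factors that switch on the small GTPase Rac1, and the study used it to bring about paraptosis, a form of cell death with large cytoplasmic vacuoles. There was 1 library per group, so that neither the difference between the lines nor the response of a line had a replicate, and each library stands for 1 culture of a line. The libraries held between 17196385 and 22663954 counts, and the 9 genes together took between 0.131% and 0.189% of them.

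Plasminogen activators cut plasminogen, an inactive protein of the blood, into plasmin, which digests fibrin and matrix proteins and also releases other proteases from their inactive forms. Urokinase does this at the cell surface while it is held by its receptor, and serpins block it. The matrix metalloproteinases are zinc enzymes: MMP1 cuts fibrillar collagen, MMP2 cuts gelatin and basement membrane collagen, and MMP14 is anchored in the membrane and switches on MMP2 with the help of TIMP2. The tissue inhibitors bind metalloproteinases at their active site, and TIMP3 stays bound to the matrix, where it also blocks several ADAM proteases. In cancer cells these genes are read as part of the invasive programme, and PLAU, PLAUR, MMP1 and TIMP1 are textbook targets of AP-1 and of MAPK signalling.

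The labels of the lines were compared with lineage markers. SOX10, a transcription factor of the melanocyte lineage, had 0 and 1 counts in the MDA-MB-231 libraries and 3031 and 707 in MDA-MB-435 without and with CPYPP. Not all melanocyte markers lay on that side: PMEL had 34 and 13 counts in the untreated MDA-MB-231 and MDA-MB-435 libraries, MITF had 1585 and 1405, and TYR had at most 3 in any library. Of the 8 melanocyte markers, 6 had at least 10 counts in each MDA-MB-435 library and 2 or 3 in the MDA-MB-231 libraries, with summed levels of 261 and 143 CPM (counts relative to library size) in MDA-MB-435 against 72.8 and 44.6 in MDA-MB-231. All 6 epithelial markers had at least 10 counts in both MDA-MB-231 libraries and 3 did in those of MDA-MB-435, where CDH1 was at 0, and their summed level was 1816 and 1627 CPM against 291 and 247. Markers of fibroblasts, which make several of these proteases in tissue, summed to between 2.38 and 20.0 CPM, and those of leukocytes and endothelium to between 1.57 and 3.30 CPM. MITF, a melanocyte factor, fell over both lines after CPYPP (log2 change -0.63, edgeR adjusted p = 0.0198), while SOX10 stood at 0.285 of control in MDA-MB-435 (0.263 to 0.310) and was near 0 in MDA-MB-231. The part of lineage and of other cell types in the values of the 9 genes was not tested. In bulk RNA, fewer cells of a type and less RNA per cell cannot be told apart.

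Promoter sequence was available for 5 of the 9 genes, as windows of the 250 bases before the RefSeq transcription start on GRCh38.p14. The windows are shown for PLAU, whose level varied most, for its receptor PLAUR, whose values after CPYPP lay on either side of the control level, and for TIMP3, the inhibitor with the lowest ratios after CPYPP. Capitals mark matches, on either strand, to the 5 motifs searched, which are spelled out after the windows.
PLAU, first start, chr10:73910360-73910609, plus strand: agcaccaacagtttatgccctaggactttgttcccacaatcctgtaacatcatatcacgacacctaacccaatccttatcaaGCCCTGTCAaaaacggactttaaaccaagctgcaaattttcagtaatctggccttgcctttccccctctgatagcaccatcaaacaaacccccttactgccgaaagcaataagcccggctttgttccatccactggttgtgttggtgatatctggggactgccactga
PLAU, second start, chr10:73910882-73911131, plus strand: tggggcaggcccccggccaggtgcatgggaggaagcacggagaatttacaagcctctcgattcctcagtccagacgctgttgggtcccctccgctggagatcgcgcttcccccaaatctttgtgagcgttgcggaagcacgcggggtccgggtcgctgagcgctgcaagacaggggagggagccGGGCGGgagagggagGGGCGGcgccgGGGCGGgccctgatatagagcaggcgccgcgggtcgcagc
PLAUR, chr19:43670170-43670419, minus strand: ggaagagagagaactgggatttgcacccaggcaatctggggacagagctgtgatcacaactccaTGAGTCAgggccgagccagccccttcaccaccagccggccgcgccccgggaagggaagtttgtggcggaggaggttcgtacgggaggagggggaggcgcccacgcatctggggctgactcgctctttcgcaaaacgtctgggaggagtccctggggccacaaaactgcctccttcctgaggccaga
TIMP3, chr22:32801455-32801704, plus strand: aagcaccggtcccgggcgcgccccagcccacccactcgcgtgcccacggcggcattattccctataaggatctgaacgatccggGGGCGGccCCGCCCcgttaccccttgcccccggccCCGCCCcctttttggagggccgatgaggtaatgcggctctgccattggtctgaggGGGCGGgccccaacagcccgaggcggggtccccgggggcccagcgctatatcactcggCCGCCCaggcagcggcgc

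The AP-1 site was searched as TGACTCA, and the PLAUR window held 1 match at position -186 from the start, a motif present in 4.2% of all 35116 RefSeq windows of this length. The core of the antioxidant response element was searched as TGACNNNGC, and the window of the first PLAU start held 1 match at position -168, where 10.9% of all windows have one. The GC box was searched as GGGCGG, and the window of the second PLAU start held 3. TIMP3 had 5 GC boxes, TIMP1 had 2 and MMP14 had 1, and 42.6% of all windows have at least 1. The heat shock element core (searched as GAANNTTC) matched in none of these 6 windows and in 5.78% of all windows. The same held for the TATA box, whose letters TATAAA are in 10.7% of all windows. The matches describe the letters of these windows, and binding was not measured.

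Levels of different genes are compared per length, as RPKM, which is CPM divided by the exon length in kilobases, with library sizes scaled by edgeR's TMM factors. These lengths are given per gene and not per transcript, with 2949 bases for PLAU, 7770 for PLAT and 4457 for PLAUR. The orders and ratios between genes below depend on them. In the MDA-MB-231 control library the order from high to low was PLAU, TIMP2, TIMP3, TIMP1, MMP14, PLAT, PLAUR, MMP1 and MMP2, from 113 RPKM for PLAU to 0.0379 RPKM for MMP2. In the MDA-MB-435 control library it was TIMP1, TIMP2, MMP14, MMP1, TIMP3, PLAUR, PLAT, PLAU and MMP2, from 167 RPKM for TIMP1 to 0.170 RPKM for MMP2. PLAU was thus first in one line and next to last in the other, and MMP1 was next to last in MDA-MB-231 but directly behind MMP14 in MDA-MB-435. PLAUR and PLAT were neighbours in the MDA-MB-435 control library at 10.7 and 10.6 RPKM. With 1 library per group there was no spread against which neighbours in these orders could be separated.

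**Figure D1:**
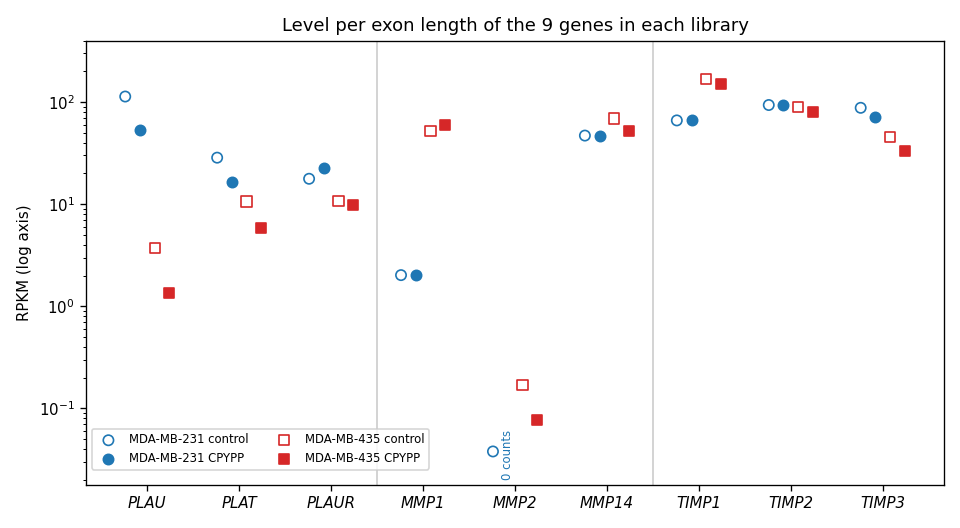
Level of each gene (RPKM, log axis) in each library, with open symbols for control and filled symbols for CPYPP, circles for MDA-MB-231 and squares for MDA-MB-435. PLAU spans 113 to 1.35 RPKM and MMP1 spans 2.01 to 60.0 RPKM, while the 4 values of TIMP2 lie between 80.3 and 93.6 RPKM, and MMP2 had 0 counts in the MDA-MB-231 CPYPP library.

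The first comparison asked how the untreated lines differ. MDA-MB-231 carried the higher levels of the activators and of TIMP3, and MDA-MB-435 carried the higher levels of MMP1, MMP2, MMP14 and TIMP1. Of the 9 genes, 2 (PLAU and PLAT) were over 2-fold higher in MDA-MB-231, where 21.5% of all 18269 genes with at least 10 counts in either library were, and 3 (MMP1, MMP2 and TIMP1) were over 2-fold higher in MDA-MB-435, where 23.8% of all genes were. The 95% exact binomial (Clopper-Pearson) interval of the fold, which covers counting error only, lay on the MDA-MB-231 side for 5 genes (39.8% of all genes) and on the MDA-MB-435 side for 4 (40.4% of all genes). Deeper counts narrow this interval, and these shares were not matched for depth. The median log2 difference, MDA-MB-435 over MDA-MB-231, was -0.06 for the 9 genes and 0.03 for all genes.

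PLAU (ENSG00000122861, chromosome 10, 73909177 to 73917496 on GRCh38, plus strand) had the widest range of all 9 genes, 6.39 on the log2 scale over the 4 libraries. Its count was 7489 without and 2582 with CPYPP in MDA-MB-231, against 260 and 77 in MDA-MB-435. Both values of MDA-MB-231 lay above both of MDA-MB-435, and within each line the CPYPP library was the lower. The untreated lines differed 30.5-fold (26.9 to 34.6), with MDA-MB-231 higher.

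PLAT (ENSG00000104368, chromosome 8, 42174718 to 42207709, minus strand) had 4972 and 2107 counts in MDA-MB-231 without and with CPYPP, against 1957 and 873 in MDA-MB-435. Its control level was 2.69-fold (2.55 to 2.83) higher in MDA-MB-231. The mix of the activators also differed, since PLAU made up 79.9% of the summed RPKM of PLAU and PLAT in untreated MDA-MB-231 but 25.9% in untreated MDA-MB-435. Their summed level was 142 RPKM in MDA-MB-231 against 14.4 RPKM in MDA-MB-435.

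PLAUR (ENSG00000011422, chromosome 19, 43646095 to 43670547, minus strand) varied less. It had 1772 and 1674 counts in MDA-MB-231 against 1131 and 844 in MDA-MB-435, and the control libraries differed 1.66-fold (1.54 to 1.79), with MDA-MB-231 higher. Per length, receptor RNA stood at 0.157 times PLAU RNA in untreated MDA-MB-231 but at 2.88 times PLAU RNA in untreated MDA-MB-435, since the receptor differed far less between the lines than its ligand.

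MMP1 (ENSG00000196611, chromosome 11, 102789401 to 102798160, minus strand) ran the other way. It had 124 and 91 counts in MDA-MB-231 against 3389 and 3182 in MDA-MB-435, with no overlap between the lines, and the control level was 25.8-fold (21.6 to 31.2) higher in MDA-MB-435. MMP14 (ENSG00000157227, chromosome 14, 22836560 to 22849041, plus strand) had 4867 and 3590 counts in MDA-MB-231 against 7580 and 4658 in MDA-MB-435, and its control level was 1.47-fold (1.42 to 1.53) higher in MDA-MB-435. MMP2 (ENSG00000087245, chromosome 16, 55389700 to 55506691, plus strand), the gelatinase that MMP14 activates, was near the limit of detection, with 4 and 0 counts in MDA-MB-231 against 19 and 7 in MDA-MB-435. Its control ratio of 4.49 in favour of MDA-MB-435 had an interval of 1.49 to 18.2. A count of 0 allows up to 3 counts, which is 0.181 CPM in the MDA-MB-231 CPYPP library. MMP1 made up 4.12% of the summed RPKM of MMP1, MMP2 and MMP14 in untreated MDA-MB-231 and 43.0% in the MDA-MB-435 control library.

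TIMP1 (ENSG00000102265, chromosome X, 47582408 to 47586789, plus strand) had 2143 and 1611 counts in MDA-MB-231 against 5738 and 4210 in MDA-MB-435, a control difference of 2.53-fold (2.41 to 2.66) with MDA-MB-435 higher. TIMP3 (ENSG00000100234, chromosome 22, 32801705 to 32863041, plus strand) had 9050 and 5414 counts in MDA-MB-231 against 4988 and 2960 in MDA-MB-435, and its control level was 1.92-fold (1.85 to 1.99) higher in MDA-MB-231. TIMP2 (ENSG00000035862, chromosome 17, 78852977 to 78925387, minus strand) was the most even of the 9 genes, with 11812 and 8629 counts in MDA-MB-231 against 11946 and 8761 in MDA-MB-435. Its control difference of 1.05-fold (1.02 to 1.07) in favour of MDA-MB-231 had an interval that included 1 when total counts replaced TMM. Summed over TIMP1, TIMP2 and TIMP3, RNA per length was 5.05 times that of MMP1, MMP2 and MMP14 together in untreated MDA-MB-231 but 2.49 times in untreated MDA-MB-435. These sums leave out the other metalloproteinases, of which MMP3 alone had 658 RPKM in untreated MDA-MB-435, above the sum of the inhibitors.

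**Figure D2:**
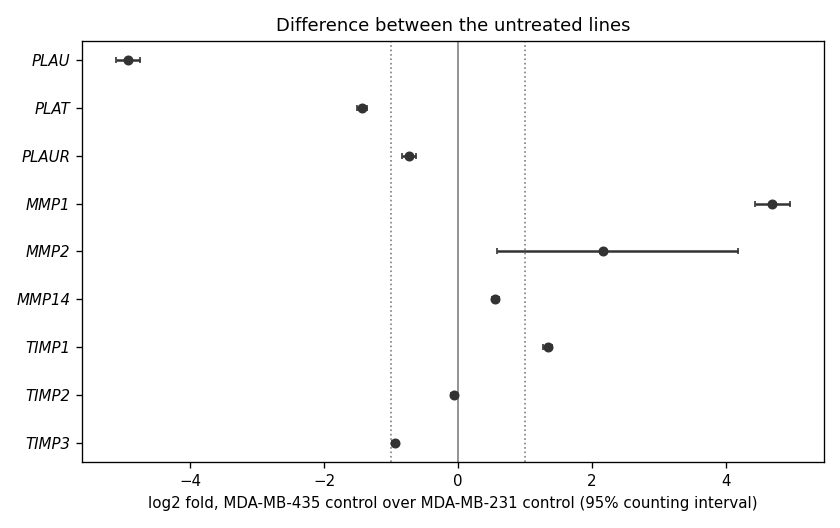
Log2 fold of MDA-MB-435 control over MDA-MB-231 control for each gene, with bars for the 95% counting interval and dotted lines at a 2-fold difference. PLAU lies farthest to the MDA-MB-231 side and MMP1 farthest to the MDA-MB-435 side, and the bar of MMP2 is wide because it rests on 4 and 19 counts.

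The line difference was also tested with edgeR's quasi-likelihood test over the 4 libraries, with treatment as a block and Benjamini-Hochberg adjustment over 16801 genes. This fit has 1 residual degree of freedom, and its spread is the difference between the responses of the lines, not between cultures. The spread of each gene is also moderated by that of all genes, so that the p-values rest largely on pooled spread. Of the 8 members that passed its filter, which left out MMP2, 4 were higher in MDA-MB-231 (32.4% of all genes were) and 3 in MDA-MB-435 (30.5% of all genes). The log2 difference, MDA-MB-435 minus MDA-MB-231, was -5.08 for PLAU (SE 0.147, edgeR adjusted p = 1.60e-09), -1.46 for PLAT, -1.02 for TIMP3 and -0.97 for PLAUR. It was 4.79 for MMP1 (SE 0.146, edgeR adjusted p = 2.04e-09), 1.25 for TIMP1 and 0.35 for MMP14 (edgeR adjusted p = 0.0294, and 0.135 without the block). TIMP2, at -0.14, did not pass the edgeR test (adjusted p = 0.309).

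The second comparison asked what CPYPP did to these genes in each line. Urokinase and the tissue-type activator fell over both lines, while none of the 9 genes was over 2-fold higher in either line. In MDA-MB-231, 1 of the 8 members tested (PLAU) was over 2-fold lower, where 5.52% of all 16441 genes were, and 0 were over 2-fold higher, where 5.32% of all genes were. In MDA-MB-435, 2 of 9 (PLAU and MMP2) were over 2-fold lower, where 10.9% of all 16527 genes were, and 0 were over 2-fold higher, where 3.45% were. The median log2 change was -0.01 for the members and -0.02 for all genes in MDA-MB-231, and -0.41 for the members and -0.09 for all genes in MDA-MB-435.

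PLAU RNA after CPYPP stood at 0.467 of its control level in MDA-MB-231 (0.447 to 0.489) and at 0.362 in MDA-MB-435 (0.277 to 0.469). PLAT stood at 0.574 (0.546 to 0.604) and 0.546 (0.503 to 0.592). The fold in MDA-MB-435 was 0.776 of that in MDA-MB-231 for PLAU (0.591 to 1.01) and 0.951 of it for PLAT (0.864 to 1.05), and both counting intervals included 1. In the edgeR fit with the line as a block, the common change was -1.23 on the log2 scale for PLAU (SE 0.133, adjusted p = 0.000626) and -0.84 for PLAT (SE 0.110, adjusted p = 0.00182), lower in 2 of 2 lines for both. These were the 2 members of 8 that fell, where 2.85% of all genes fell, and 0 rose, where 4.39% of all genes did, with 0 also at an unadjusted p under 0.05 and 0 in the DESeq2 Wald test. Both calls were lost when the line was left out of the model as a block, where 0 of all genes were called.

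The summed level of both activators went from 142 to 69.4 RPKM in MDA-MB-231 and from 14.4 to 7.15 RPKM in MDA-MB-435. PLAU left the first place among the 9 genes in MDA-MB-231, at 53.0 RPKM behind TIMP2, TIMP3 and TIMP1, and ended in MDA-MB-435 at 1.35 RPKM. Even so, the treated MDA-MB-231 library kept more PLAU RNA than the untreated MDA-MB-435 library. PLAUR per PLAU went from 0.157 to 0.429 in MDA-MB-231 and from 2.88 to 7.25 in MDA-MB-435.

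PLAUR itself was 1.28-fold its control level after CPYPP in MDA-MB-231 (1.20 to 1.37) and 0.913-fold in MDA-MB-435 (0.834 to 0.999). The value of MDA-MB-231 kept an interval above 1 under the 4 scalings tried, whereas that of MDA-MB-435 included 1 with DESeq2 size factors (0.849 to 1.02) and with TMM factors of that pair alone (0.879 to 1.05). The fold in MDA-MB-435 was 0.713 of that in MDA-MB-231 (0.637 to 0.799, conditional exact interval for counting error only), a difference between the lines that had no replicate and was not tested. The common change of 0.12 on the log2 scale did not pass the edgeR test (adjusted p = 0.714).

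Of MMP1 and MMP14, the latter had a fold after CPYPP that differed between the lines beyond counting error, and MMP2 had too few counts for this comparison. MMP1 stood at 0.995-fold in MDA-MB-231 (0.750 to 1.31), where it rests on 124 and 91 counts, and at 1.15-fold in MDA-MB-435 (1.09 to 1.21), and the ratio of these folds, 1.16 (0.870 to 1.54), included 1. MMP14 stood at 1.00-fold in MDA-MB-231 (0.957 to 1.04) and at 0.752-fold in MDA-MB-435 (0.725 to 0.780), and the ratio of these folds was 0.752 (0.711 to 0.796). MMP2 went from 19 to 7 counts in MDA-MB-435, a ratio of 0.451 whose interval included 1, with an upper bound of 1.12. Neither MMP1 (log2 change 0.13, adjusted p = 0.654) nor MMP14 (-0.21, adjusted p = 0.400) passed the edgeR test over both lines. After CPYPP in MDA-MB-435, MMP1 stood above MMP14 at 60.0 against 52.0 RPKM, where the control library had 52.2 against 69.2 RPKM.

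Of the inhibitors, TIMP3 had the lowest ratios, 0.811 in MDA-MB-231 (0.784 to 0.839) and 0.726 in MDA-MB-435 (0.694 to 0.760). Its common log2 change of -0.38 (SE 0.110) missed the threshold of 0.05 in edgeR (adjusted p = 0.0652) and passed it with total counts (adjusted p = 0.0101) and with the DESeq2 Wald test (adjusted p = 8.37e-05). TIMP1 stood at 1.02-fold in MDA-MB-231 (0.954 to 1.09) and at 0.898-fold in MDA-MB-435 (0.863 to 0.934). TIMP2 stood at 0.990-fold (0.963 to 1.02) and 0.897-fold (0.873 to 0.923), and with total counts the interval of MDA-MB-231 also lay below 1 (0.924 to 0.977). For TIMP1 the fold in MDA-MB-435 was 0.881 of that in MDA-MB-231 (0.816 to 0.952). This ratio was 0.907 for TIMP2 (0.872 to 0.943) and 0.896 for TIMP3 (0.846 to 0.948). The intervals cover counting error only, and these differences between the lines had no replicate and were not tested. The common log2 changes of TIMP1 (-0.07, adjusted p = 0.809) and TIMP2 (-0.09, adjusted p = 0.736) did not pass the edgeR test.

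Counted by the interval alone, 3 members of MDA-MB-231 (PLAU, PLAT and TIMP3) lay below 1, where 24.5% of all genes did, and 1 (PLAUR) above it, where 25.6% did. In MDA-MB-435, 7 members lay below 1, where 31.9% of all genes did, and 1 (MMP1) above it, where 23.5% did, while MMP2 included 1. Scaling bears on these smaller ratios, since the median log2 change of all genes in MDA-MB-435 was -0.16 with total counts and -0.02 with TMM factors of that pair alone, against -0.09 here. The 3 inhibitors summed to 248 and 231 RPKM in MDA-MB-231, as against 303 and 264 RPKM in MDA-MB-435, and the 3 metalloproteinases to 49.1 and 49.0 RPKM and to 122 and 112 RPKM. The ratio of these sums was 4.72 and 2.35 after CPYPP against 5.05 and 2.49 before. MMP3, which is outside these sums, had 658 RPKM in untreated MDA-MB-435 and 876 RPKM after CPYPP, so that the ratio does not describe all metalloproteinase RNA of that line.

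**Figure D3:**
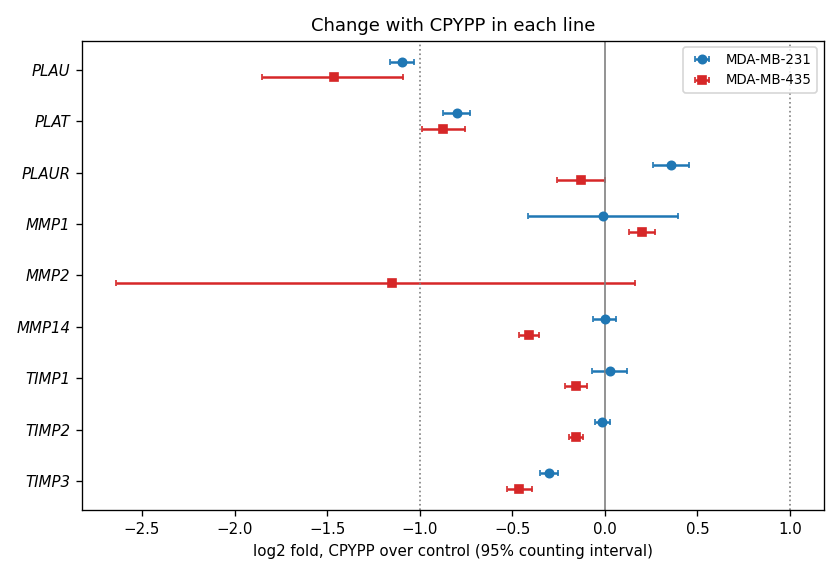
Log2 fold of CPYPP over control for each gene in MDA-MB-231 (circles) and MDA-MB-435 (squares), with bars for the 95% counting interval and dotted lines at a 2-fold difference. PLAU and PLAT lie to the left in both lines, the interval of PLAUR lies right of 0 in MDA-MB-231 and just left of it in MDA-MB-435 (with DESeq2 size factors it includes 0), and MMP14, TIMP1 and TIMP2 lie left of 0 in MDA-MB-435 with intervals that include 0 in MDA-MB-231 (for TIMP2 not with total counts).

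**Figure D4:**
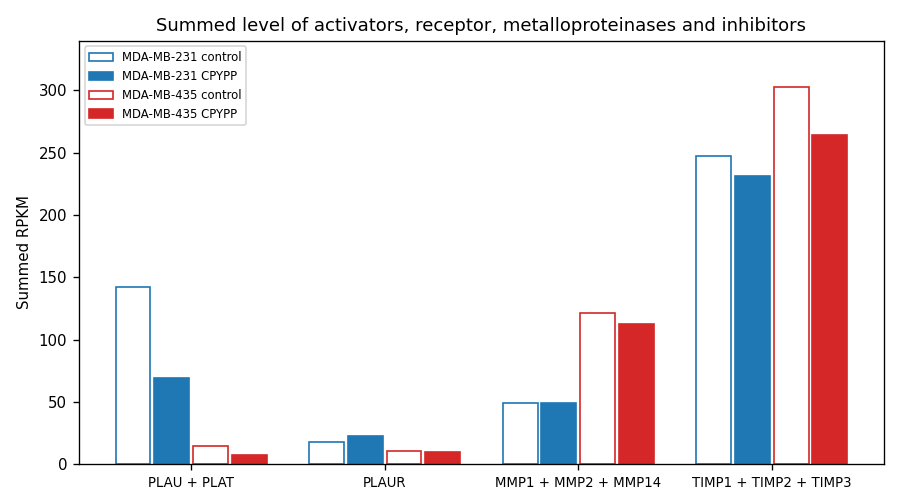
Summed RPKM of the activators, the receptor, the metalloproteinases and the inhibitors in each library, with open bars for control and filled bars for CPYPP. The activators drop from 142 to 69.4 RPKM in MDA-MB-231 and from 14.4 to 7.15 RPKM in MDA-MB-435, while MMP1, MMP2 and MMP14 together are at 49.1 and 49.0 RPKM in MDA-MB-231.

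Some members overlap another gene, and the strand setting of the counting is not stated, so that reads of overlapping genes cannot be told apart. PLAU shares 916 exon bases with C10orf55 on the opposite strand, which had 53 and 8 counts in MDA-MB-231 against 2 and 0 in MDA-MB-435. MMP1 shares 150 exon bases with WTAPP1 on the opposite strand, which had 0 counts in both MDA-MB-231 libraries and 39 and 183 in MDA-MB-435. TIMP2 shares 198 with CEP295NL, which had between 7 and 19 counts, and TIMP3 lies within SYN3 on the opposite strand without a shared exon base. With genes that have no symbol, TIMP2 shares 367 on the opposite strand and MMP2 shares 174 on the same strand. Both of these genes had 0 counts in every library. PLAUR, MMP2 and TIMP1 overlap RN7SL368P, MMP2-AS1 and SYN1, which had at most 10 counts in any library. The partners of PLAU, TIMP2 and TIMP3 carried few counts beside them. The counts of a partner do not show how many reads over shared bases were kept for a member. WTAPP1 was the only one of C10orf55, WTAPP1, CEP295NL and SYN3 with more counts after CPYPP in MDA-MB-435.

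The pattern of PLAU over the 4 libraries was taken as log2 level centred on its mean. It was compared with genes that have a symbol and at least 10 counts in any library, 16269 with PLAU itself. It was nearest to that of RIMS2, with a largest distance of 0.18 in any library, followed by MOB3B (0.23) and LINC01224 (0.28). RIMS2 had 367, 123, 10 and 1 counts in the MDA-MB-231 control, MDA-MB-231 CPYPP, MDA-MB-435 control and MDA-MB-435 CPYPP libraries. For this comparison counts under 3 were set to 3, so that the small distance of RIMS2 in MDA-MB-435 rests on that floor and not on the observed drop from 10 to 1, which is steeper than that of PLAU. The genes nearest to MMP1 were GPR162 (0.16), SLC9A9 (0.17) and MSI2 (0.18), and MSI2 had 44, 41, 1396 and 1213 counts in the same order.

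The other genes of the plasminogen system were read from lists. Plasminogen itself (PLG) had 0 counts in all 4 libraries, so that RNA for the substrate of the activators was not detectable at this depth. Of 9 serpins and other inhibitors of this system, 5 could be compared between the untreated lines. Over 2-fold higher were 3 in MDA-MB-231 (21.5% of all genes) and 2 in MDA-MB-435 (23.8% of all genes). The 2 on the MDA-MB-435 side were SERPINE2 and SERPINB2. SERPINE2 (protease nexin-1), which inhibits urokinase, had 198 and 264 counts in MDA-MB-231 against 24727 and 21240 in MDA-MB-435, a 118-fold (103 to 137) difference between the control libraries. SERPINB2 (PAI-2) had 6 and 1 counts against 376 and 178.

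Of 12 genes for plasminogen, its receptors and binding partners, 9 could be compared between the untreated lines. Over 2-fold higher were 4 in MDA-MB-231 (21.5% of all genes) and 3 in MDA-MB-435 (23.8% of all genes). S100A10, a plasminogen receptor at the cell surface, was 2.76-fold (2.66 to 2.87) higher in MDA-MB-231. MRC2, a collagen receptor that associates with PLAUR, had 533 and 555 counts in MDA-MB-231 and 0 in both MDA-MB-435 libraries. Its control level was 188-fold higher in MDA-MB-231 against a floor of 3 counts, with a counting interval from 152 upwards. LRP1, which clears protease and inhibitor complexes, was 3.75-fold (3.42 to 4.13) higher in MDA-MB-435, and F12, an upstream serine protease, was 7.88-fold higher there, with an interval from 5.00 upwards. Of these 9, 0 passed the edgeR test for CPYPP, where 4.39% of all genes rose and 2.85% fell. At an unadjusted p under 0.05 edgeR listed 0, where 3553 of all 16801 genes were listed. The DESeq2 Wald test called 0, where it called 1263 of all genes higher and 868 lower.

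Among 20 other matrix metalloproteinases, 11 could be compared between the untreated lines. Over 2-fold higher were 6 in MDA-MB-435 (23.8% of all genes) and 4 in MDA-MB-231 (21.5% of all genes). MMP3 (stromelysin-1), which activates the proform of MMP1, had 0 and 1 counts in MDA-MB-231 against 28915 and 31446 in MDA-MB-435. Against a floor of 3 counts its control level was 9113-fold higher in MDA-MB-435, with a counting interval from 7411 upwards. MMP8, another collagenase, had 2 and 0 counts against 179 and 121. The membrane-anchored MMP16 had 67 and 97 against 2105 and 1140, and MMP17 had 7 and 11 against 408 and 265. MMP9, the other gelatinase, had between 0 and 2 counts in each library, so that neither gelatinase had more than 19 counts anywhere. Of the 11, 0 passed the edgeR test for CPYPP, where 4.39% of all genes rose and 2.85% fell. At an unadjusted p under 0.05 edgeR listed 1 (MMP3), where 3553 of all 16801 genes were listed. The DESeq2 Wald test called 0, where it called 1263 of all genes higher and 868 lower.

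Of 10 other inhibitors and activators of metalloproteinases, RECK, an anchored inhibitor of MMP14 and MMP2, was even, with 314 and 234 counts in MDA-MB-231 against 368 and 295 in MDA-MB-435. FURIN, the convertase that activates MMP14, was 3.38-fold (3.18 to 3.58) higher in MDA-MB-435, and ITGB3, an integrin chain that binds matrix and MMP2, was 7.24-fold (6.26 to 8.40) higher there. In this list, 2 of the 9 genes compared were over 2-fold higher in untreated MDA-MB-435 (23.8% of all genes) and 1, TIMP4, in untreated MDA-MB-231 (21.5%). Over both lines 1 of the 9 tested fell after CPYPP in edgeR, where 2.85% of all genes did, and 0 rose, where 4.39% did. The gene that fell was the claudin CLDN1 (log2 change -0.64, edgeR adjusted p = 0.0307), which is named here after its value was seen.

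Of 14 ADAM and ADAMTS proteases, 13 could be compared between the untreated lines. Over 2-fold higher were 7 in MDA-MB-231 (21.5% of all genes) and 2 in MDA-MB-435 (23.8% of all genes). ADAMTS15, a secreted protease of proteoglycans, had 2186 and 413 counts in MDA-MB-231 against 16 and 2 in MDA-MB-435. It fell over both lines (edgeR adjusted p = 0.000424) and stood at 0.256 of its control level in MDA-MB-231 (0.230 to 0.285). ADAM8 was 23.1-fold (17.2 to 31.7) and ADAMTS12 12.4-fold (10.5 to 14.7) higher in untreated MDA-MB-231. ADAMTS9 had 0 counts in untreated MDA-MB-435. Against a floor of 3 counts it was 254-fold higher in untreated MDA-MB-231, with a counting interval from 206 upwards. In MDA-MB-435, 5 of 12 were over 2-fold lower after CPYPP (10.9% of all genes were) and 1 was higher (3.45%). Of these 5, ADAM8, ADAM28, ADAMTS4 and ADAMTS15 had at most 47 counts in either MDA-MB-435 library, and ADAMTS12 had 154 and 61. In MDA-MB-231, 1 of 12 was lower (5.52% of all genes were) and 1 higher (5.32%). Over both lines 1 of the 12 fell in edgeR, namely ADAMTS15, where 2.85% of all genes fell. ADAM17, the sheddase that TIMP3 inhibits, rose over both lines by 0.90 (edgeR adjusted p = 0.0025). It was the 1 gene of this list that did, where 4.39% of all genes rose. It stood at 1.64-fold in MDA-MB-231 (1.52 to 1.77) and 2.12-fold in MDA-MB-435 (upper bound 2.25), and it too was named after its value was seen.

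Of 14 cathepsins, cystatins and other invasion proteases, 13 could be compared between the untreated lines. Over 2-fold higher were 4 in MDA-MB-231 (21.5% of all genes) and 1 in MDA-MB-435 (23.8% of all genes). CTSL (cathepsin L), a lysosomal cysteine protease, had 1927 and 1989 counts in MDA-MB-231 and 0 in both MDA-MB-435 libraries. Against a floor of 3 counts it was 679-fold higher in untreated MDA-MB-231, with a counting interval from 552 upwards. LGMN (legumain) was 2.70-fold (2.41 to 3.04) higher in MDA-MB-231. CTSK (cathepsin K), a collagen-cutting cathepsin, stood at 2.69-fold its control level after CPYPP in MDA-MB-231 (1.98 to 3.69) and at 1.94-fold in MDA-MB-435 (1.33 to 2.84), and missed the edgeR threshold over both lines (adjusted p = 0.0582). Of the 13, 0 passed that test, where 4.39% of all genes rose and 2.85% fell. At an unadjusted p under 0.05 edgeR listed 2 (CTSK and CTSL), where 3553 of all 16801 genes were listed. The DESeq2 Wald test called 1 (CTSK), where it called 1263 of all genes higher and 868 lower.

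Of 11 AP-1 and ETS factors, several of which are known to act on PLAU and MMP1, 3 rose over both lines after CPYPP in edgeR, where 4.39% of all genes did, and 0 fell, where 2.85% did. At an unadjusted p under 0.05 edgeR listed 7, where 3553 of all 16801 genes were listed. The DESeq2 Wald test called 5, where it called 1263 of all genes higher and 868 lower. Among these 5 was FOSL2, which was lower in both lines (log2 change -0.45, edgeR adjusted p = 0.0601). The common change was a rise of JUN by 0.53 on the log2 scale (edgeR adjusted p = 0.018), JUNB by 0.69 (edgeR adjusted p = 0.0229) and FOS by 1.62 (edgeR adjusted p = 0.0309), of which JUN and FOS were named after their values were seen. In the untreated lines 3 were over 2-fold higher in MDA-MB-435 (23.8% of all genes) and 0 in MDA-MB-231 (21.5% of all genes). Among the 3 were JUNB at 3.32-fold (2.90 to 3.81) and ETV5 at 2.03-fold (1.91 to 2.16). Their part in the values of PLAU, PLAT and MMP1 was not tested.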

How the data were processed

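The authors deposited raw read counts per gene for 4 libraries, with no normalization, made per their submitters' processing notes with cutadapt 1.9.1, HISAT2 2.2.1 and HTSeq 0.6.1 (DESeq2 is also named). These notes name GRCh37.p13, yet 58196 of the 58254 identifiers shared with GENCODE v29 overlap it in position, all 9 members included, so that coordinates are given on GRCh38. The strand setting is not given in the sources used here. Every growth and treatment text speaks of MDA-MB-435, so lines were assigned by the cell line label.

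Counts were scaled by TMM factors (MDA-MB-231 control 1.00 and CPYPP 0.961, MDA-MB-435 control 1.05 and CPYPP 0.993) in R 4.3.3 with edgeR 4.0.16, with DESeq2 1.42.0 as an alternative, and described in Python 3.11.15 with scipy 1.17.1. With depths between 17196385 and 22663954 counts, scaled by these factors, 3 counts correspond to 0.127 to 0.181 CPM. Folds between single libraries have 95% exact binomial intervals for counting error only (reads are not independent molecules) and were counted when over 2-fold among genes with at least 10 counts in either library, with counts of 3 or fewer set to 3. The edgeR quasi-likelihood test used all 4 libraries, with line and treatment as terms, and an adjusted p under 0.05. The scripts were tested on simulated data.

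The members and gene lists were chosen with earlier results of these data known. Named are all 9 members, the up to 4 genes per other list with the largest change over 2-fold and at least 100 counts, RECK and MMP9 (1 gene that the rule names is not reported here), the 3 genes nearest to each of the 2 most variable members, and genes overlapping a member. Alternatives were total counts, DESeq2 size factors, other filters, folds and tests, a fit without the block and, added after seeing the data, TMM factors of each pair alone.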

Additional observations from a re-analysis of the deposited data

Results flagged for a closer look

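PLAUR was singled out because its intervals lay on opposite sides of 1 in the lines, above it in MDA-MB-231 (1.28, 1.20 to 1.37) and below it in MDA-MB-435 (0.913, 0.834 to 0.999). The fold in MDA-MB-435 was 0.713 of that in MDA-MB-231. With 1 library per group this difference was not tested, and the interval of MDA-MB-435 included 1 with DESeq2 size factors and with TMM factors of that pair alone.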

How the results depend on the processing

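Of 122 recomputed main values and counts, 101 stayed within 1.5 times the reported count or within its counting interval. A change of direction past the threshold was seen in 0 of them, which the counts among them could not show. Of 673 further recomputed values of single genes, 617 were likewise unchanged in call or within their counting interval, 29 moved beyond it, 15 lost and 12 gained a call. Small folds changed sign with the scaling, among the members TIMP1 in MDA-MB-231 (log2 0.03, and -0.03 with total counts) and MMP1 and MMP14 there, whose intervals include 1. At over 1.5-fold, 4 members were higher in untreated MDA-MB-231 in place of 2, and at over 4-fold 1 was. For CPYPP in MDA-MB-231, 2 members were lower at over 1.5-fold, and 0 were at over 4-fold or at an assumed coefficient of variation of 0.2, in place of 1. In MDA-MB-435, 0 members were lower at over 4-fold or at that coefficient, and 1 was with the exact binomial test, which dropped MMP2, in place of 2. Over all genes, 4223 passed 4-fold between the untreated lines (8281 passed 2-fold). In MDA-MB-231, 3959 passed 1.5-fold, 318 passed 4-fold, 1103 passed the exact binomial test and 156 passed at a coefficient of 0.2, in place of 1782, and in MDA-MB-435 4860 passed 1.5-fold, 409 passed 4-fold and 305 passed at a coefficient of 0.2, in place of 2376. The edgeR test for CPYPP called 1215 genes, 1930 with total counts, 1896 with no filter and 2131 with the DESeq2 Wald test. Without the line as a block edgeR called 0 genes and 0 members (167 genes at an unadjusted p under 0.05, 3553 with the block), and MMP14 also lost its line difference (adjusted p = 0.135). The cause of these shifts was not tested, apart from the fold thresholds, which move the counts by construction. The balance of the edgeR calls for CPYPP turned with the scaling, from 737 genes higher and 478 lower (60.7% higher) to 843 higher and 1087 lower with total counts (43.7% higher). TIMP3 passed the edgeR test with total counts, with no filter (adjusted p = 0.0358) and with the DESeq2 Wald test. No paired analysis was possible because the labels carry no replicate numbers, beyond the pairing of control and CPYPP within a line that the block makes, and with 1 library per group none could be left out. Depth limits MMP2, at 0 to 19 counts, and the low MMP1 counts of MDA-MB-231.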
